A study of Mus musculus with 9 samples.

Results

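Genes of cholesterol and fatty acid synthesis that are driven by the sterol regulatory element binding proteins (SREBPs) were followed across mouse liver and angiosarcoma cell lines. The 30 genes were taken from a fixed list and split into a sterol arm of 15 and a fatty acid arm of 15, and all 30 were measured among the 19938 genes tested. A gene was measured by the probe set that the platform's annotation gives to it alone, or by the brightest such probe set where it had more than 1, as 4 of the 30 did.

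The study holds 9 whole-transcript arrays in 3 groups of 3. WT liver came from mice with loxP-flanked Notch1 and no Cre. KO liver came from mice that carried the same Notch1 lox/lox allele together with MxCre, a Cre transgene that the interferon response switches on in many cell types, so an effect of the transgene and that of deleting Notch1 cannot be told apart. Both genotypes were C57Bl/6 and received polyinosinic-polycytidylic acid, an interferon inducer, at 300 µg a dose on day 0, day 3 and day 6, starting when they were 4 weeks old. Cre then removes the exon that encodes the signal peptide of Notch1. The sources used here do not state the age at tissue collection. The last group, AS line, holds 3 cell lines labelled hepatic angiosarcoma, grown from endothelial cells isolated from livers of Notch1 knockout mice with visible tumours and kept in culture until 1 cell population had taken over. How many mice gave the lines is not stated. Arrays of a group are called biological replicates in the labels, and no batch is named. The labels call the tissue samples snap-frozen liver, but the extraction protocol, worded alike for all 9 arrays, names the material PHH without explaining it, so whether whole liver was extracted is not settled. The values are log2 expression, and a log2 difference of 1 is a doubling.

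SREBPs are transcription factors held in the endoplasmic reticulum as inactive precursors. When membrane sterol is low, the escort protein Scap carries them to the Golgi apparatus, where proteases release the active part, and when sterol is plentiful Insig1 and Insig2 hold Scap back. SREBP-2, made from Srebf2, mainly drives cholesterol synthesis and uptake, while SREBP-1c, made from Srebf1, mainly drives fatty acid synthesis. In hepatocytes SREBP-1c is induced by insulin and by the oxysterol receptor LXR, and the glucose-responsive factor ChREBP (Mlxipl) acts on several of the same lipogenic genes.

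Upstream sequence was available in a RefSeq promoter table (build GRCm38.p6) for 24 of the 30 genes, as 30 promoters. The 250 bases before each start were searched on both strands for the sterol regulatory element TCACNCCAC, the NF-Y box CCAAT, the Sp1 box GGGCGG and the E-box CACGTG, where N is any base. NF-Y and Sp1 are general factors known to act beside SREBPs. At least 1 NF-Y box was found in 12 of 14 sterol arm promoters, in 9 of 16 fatty acid arm promoters and in 33.8% of all 32851 promoters in the table. The Sp1 box was found in 13 of 14 and 7 of 16, against 32.7% of all. The E-box was found in 3 and 1, against 6.02% of all, and the sterol element in 1 and 0, against 1.05% of all. Of the 4 promoters below, 3 belong to sterol arm genes that stood above every liver in all 3 lines (Lss, Mvk and Srebf2). The other belongs to the only member with a match to the sterol element (Hmgcs1). Lss, Mvk and Srebf2 were also picked for having an NF-Y box and 1 start, so their boxes say nothing about raised genes in general. Acaca and Me1 also stood above every liver in all 3 lines. Acaca, with 0 NF-Y boxes, and Me1, with 2 promoters, were left out. Each is given 5′ to 3′ on the strand of the gene, ending at the base before the start, and capitals mark the NF-Y box in either direction and, in Hmgcs1, the sterol element. They lie at chr13:119690101-119690350 (Hmgcs1), chr10:76531355-76531604 (Lss), chr5:114444019-114444268 (Mvk) and chr15:82147019-82147268 (Srebf2), all on the plus strand.
Hmgcs1: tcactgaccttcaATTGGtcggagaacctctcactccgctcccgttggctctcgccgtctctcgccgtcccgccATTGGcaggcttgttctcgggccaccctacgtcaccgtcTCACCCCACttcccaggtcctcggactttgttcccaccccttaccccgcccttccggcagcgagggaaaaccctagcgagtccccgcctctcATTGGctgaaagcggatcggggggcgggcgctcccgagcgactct
Lss: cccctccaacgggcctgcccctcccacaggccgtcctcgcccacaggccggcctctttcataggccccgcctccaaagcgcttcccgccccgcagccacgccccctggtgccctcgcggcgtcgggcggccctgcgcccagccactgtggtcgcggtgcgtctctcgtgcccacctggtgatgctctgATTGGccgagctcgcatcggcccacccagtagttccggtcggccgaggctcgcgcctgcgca
Mvk: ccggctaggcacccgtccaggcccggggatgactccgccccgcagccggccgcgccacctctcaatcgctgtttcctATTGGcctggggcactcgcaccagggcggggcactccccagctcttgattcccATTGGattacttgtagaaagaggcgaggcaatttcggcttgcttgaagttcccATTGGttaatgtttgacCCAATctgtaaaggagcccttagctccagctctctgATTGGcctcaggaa
Srebf2: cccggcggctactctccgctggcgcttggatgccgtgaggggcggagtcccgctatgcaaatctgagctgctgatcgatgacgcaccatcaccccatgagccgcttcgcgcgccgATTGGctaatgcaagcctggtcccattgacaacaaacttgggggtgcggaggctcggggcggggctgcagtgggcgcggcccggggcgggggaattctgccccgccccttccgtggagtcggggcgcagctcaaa
Mvk had 5 NF-Y boxes, a number reached by 0.213% of all promoters, and Hmgcs1 had 3, a number reached by 2.79%. Lss and Srebf2 had 1 each. Such matches are letters in a window and do not show that a factor was bound. A match had to be exact, so elements that vary from these letters or lie outside the window were not counted. Sqle, Fdft1, Fdps, Scd1, Scd2 and Fads1 had no promoter in the table and were not searched.

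Facts of the whole set of arrays bear on these genes. Notch1 was at 11.47 ± 0.39 (SD, n = 3) in WT liver, 8.37 ± 0.47 in KO liver and 8.39 ± 0.50 in the AS lines. The mean of 12 hepatocyte markers ran from 11.43 to 12.50 in the WT livers and from 9.29 to 12.50 in the KO livers, where replicates 1 and 3 (10.43 and 9.29) were far below replicate 2 (12.50). The Y-linked gene Eif2s3y stood at 8.66 in 1 array, KO replicate 3, where no other array exceeded 4.06. Endothelial markers were bright in all livers (mean of 8 genes 11.61 to 12.18) and dim in the AS lines (5.90 to 6.17, against array medians of 6.53 to 6.63), so markers that define the labelled cell type were low in the lines: Cdh5, Kdr and Pecam1 were at 5.39 to 5.89. The lines were bright for the cholangiocyte markers Krt7, Krt19 and Cdh1 but not for the fourth measured, Epcam, which was at 5.71, 5.56 and 6.02 in lines 1, 2 and 3 and at 5.33 to 6.77 in the livers. The mean of these 4 was 9.79 to 10.32 in the lines, against 5.90 to 7.06 in the livers. Some hepatocyte genes were also bright there: Alb was at 12.31, 13.67 and 12.82 and Hnf4a at 10.95, 11.10 and 10.35 in lines 1, 2 and 3, while Tat, Tdo2 and Cyp2e1 were at 4.54 to 6.01. The lines are therefore called here by their label without a statement on their lineage. The mean of 6 adipocyte markers was 6.51 to 6.76 in the livers and 5.63, 6.46 and 5.74 in lines 1, 2 and 3. Of these, Adipoq and Lep were at 4.65 to 4.96 in every array, whereas Fabp4, which endothelial cells and macrophages also express, was at 11.12 to 12.60 in the livers and at 5.69, 9.36 and 6.10 in the lines.

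**Figure D1:**
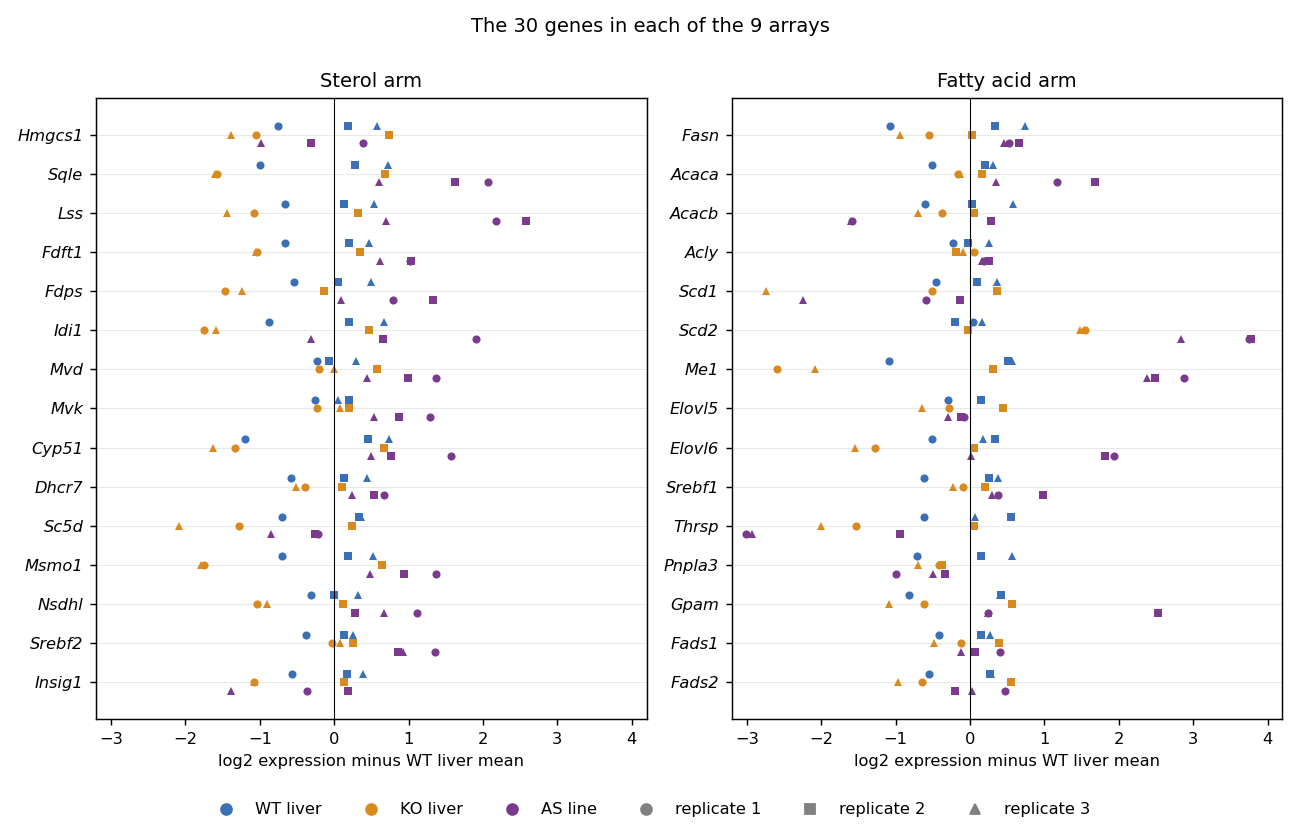
Each point is 1 array, placed by its log2 expression minus the WT liver mean of that gene (x axis), for the sterol arm (left) and the fatty acid arm (right); colour gives the group and shape the replicate. WT replicate 1 and KO replicates 1 and 3 lie left of the other livers for nearly all genes, Scd2 runs the other way among the KO livers, and the AS lines reach furthest to the right for Scd2 (12.88, 12.91 and 11.97 in lines 1, 2 and 3) and Me1.

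The first comparison, of KO with WT livers, asks whether loss of Notch1 changes lipid synthesis genes in liver. Sterol arm genes were lower on average in the KO livers, with a median log2 difference of -0.67 against -0.0011 over all genes, and 12 of 15 were negative. The fatty acid arm had a median of -0.36 with 14 of 15 negative, where 49.8% of all genes were positive. Tested with limma, 0 of the 30 reached an adjusted p under 0.05, and 0 of the 19938 genes did (background 0%). Leaving out KO replicate 2 gave 1949 genes and 1 member, and leaving out WT replicate 1 gave 60 genes and 0 members. Array weights, which limma estimates from each array's scatter around its group and not from a separate quality measure, gave 5744 genes. Of the members, 11 of the sterol arm were then lower and, in the fatty acid arm, 5 lower and 1 higher. None of the 30 had an unadjusted p under 0.05, against 22.5% of all genes, and for all 30 the KO and WT values overlapped, whereas 19.2% of all genes lay wholly above and 11.1% wholly below. The smallest adjusted p among them was 0.256, for Scd2.

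The livers of 1 genotype lay far apart in these genes. All 15 sterol arm genes were lowest in replicate 1 among the WT livers, as were 46.4% of all genes. All 15 were also highest in replicate 2 among the KO livers (32.3% of all genes), and 17.6% of all genes showed this combination. In the fatty acid arm 13 of 15 had it, all but Acly and Scd2. The sterol arm mean stood at -0.63, 0.17 and 0.45 log2 units from the WT mean in WT replicates 1, 2 and 3, while the KO livers had -1.02, 0.36 and -1.08. The mean of the fatty acid arm stood at -0.56, 0.21 and 0.35 in the WT livers, against -0.50, 0.17 and -0.86. The hepatocyte markers moved with both arms: they stood at -0.67, 0.39 and 0.28 in the WT livers, against -1.68, 0.40 and -2.82. In such bulk samples, fewer cells of a type and less RNA per cell cannot be told apart. With the hepatocyte mean as a covariate the median difference was 0.12 in the sterol arm, where 11 of 15 were then positive, and 0.19 in the fatty acid arm, where 10 of 15 were, and again 0 members passed (smallest adjusted p = 0.219 in limma, for Elovl5). Proliferation markers also moved with genotype, from means of 6.98 to 7.18 in the WT livers to 8.03 to 9.52 in the KO livers. All 4 measured cholangiocyte markers were lower in every KO liver than in every WT liver (median difference -0.77). Of these, Krt7, Krt19 and Epcam were dim in both genotypes, at mean percentiles of 24.1 to 40.8 among the genes of an array. The 4 T and NK cell markers, with a median of -1.72, averaged 7.07, 10.03 and 10.07 in WT replicates 1, 2 and 3 and 7.17 to 7.58 in the KO livers. The part of these 3 lists in the result was not tested.

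**Figure D2:**
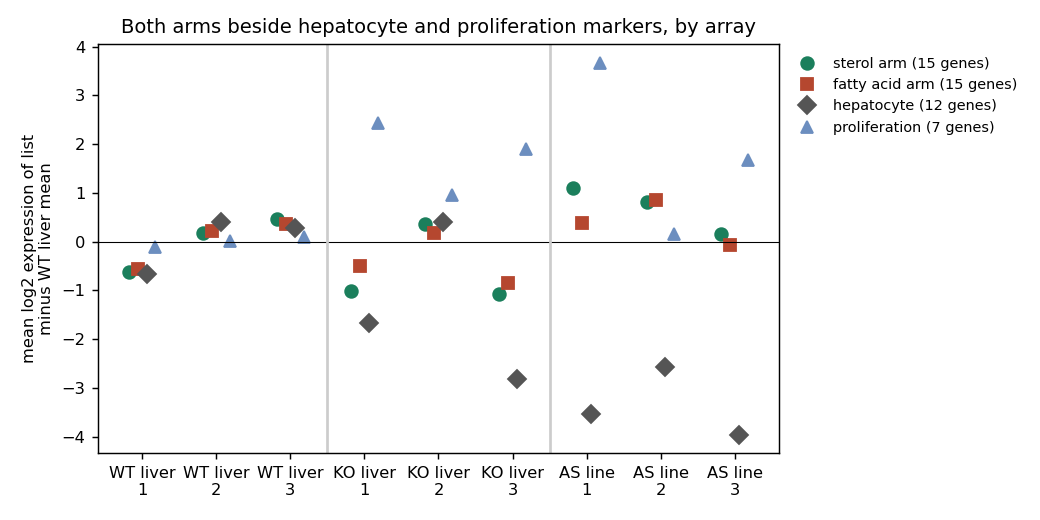
Points give, for each of the 9 arrays (x axis), the mean log2 expression of a gene list minus its WT liver mean (y axis), for the sterol arm, the fatty acid arm, hepatocyte markers and proliferation markers. Among the livers both arms are low where the hepatocyte list is low (WT replicate 1, KO replicates 1 and 3), while in the AS lines the arms stand near or above the WT mean and the hepatocyte list at -3.55, -2.57 and -3.96.

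Among the regulators in liver, both SREBP genes had differences near 0 and Insig1 was lower by mean. Srebf2 was at 9.24, 9.76 and 9.87 in the WT livers (replicates 1, 2 and 3), against 9.59, 9.87 and 9.70 in those of the KO. Srebf1 was at 8.81, 9.68 and 9.80 in the WT livers against 9.34, 9.64 and 9.20. Their differences, 0.10 (SE 0.185) and -0.04 (SE 0.290), were smaller than their standard errors. Insig1, which is itself an SREBP target and closes the feedback loop, was at 10.93, 11.67 and 11.89 in the WT livers, against 10.42, 11.63 and 10.42. Its KO replicates 1 and 3 lay below all WT livers and its replicate 2 within them.

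Along the sterol pathway in liver, most enzymes were low in KO replicates 1 and 3 and not in replicate 2. Msmo1, a demethylase of C4 methylsterols, was at 9.49, 10.38 and 10.71 in the WT livers and at 8.45, 10.84 and 8.40 in the others. KO replicates 1 and 3 lay under the lowest WT liver, and KO replicate 2 above the highest. Sc5d, the sterol C5 desaturase, was at 10.08, 11.11 and 11.14 against 9.49, 11.02 and 8.69, and its mean difference of -1.04 (SE 0.648, adjusted p = 0.377 in limma) was the largest of the sterol arm. Idi1, which interconverts the isoprenoid building blocks, was at 7.97, 9.04 and 9.51 against 7.08, 9.30 and 7.25. Fdps, which joins these blocks to farnesyl diphosphate, had the smallest adjusted p of the arm (0.261, difference -0.95, SE 0.431), with 9.62, 10.21 and 10.65 in the WT against 8.69, 10.02 and 8.91 in the KO livers. Mvk, which phosphorylates mevalonate, and Mvd, which decarboxylates a later intermediate, had the smallest mean differences besides Srebf2, with 0.01 (SE 0.165) and 0.12 (SE 0.239). Their sign was not stable over the alternatives, with ranges of -0.21 to 0.14 for Mvk and -0.10 to 0.41 for Mvd.

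In the fatty acid arm Scd2 ran against the other members. Scd2, the stearoyl-CoA desaturase that predominates outside the adult hepatocyte, was at 9.18, 8.93 and 9.30 in the WT livers, whereas KO replicates 1, 2 and 3 had 10.69, 9.10 and 10.62. The 2 KO replicates that were low in hepatocyte markers lay above every WT liver, and KO replicate 2 lay among the WT values. The difference was 1.00 (SE 0.447, adjusted p = 0.256 in limma). Without KO replicate 2 it was 1.52 with an adjusted p of 0.0170, and no other of the 30 genes passed then. Scd1, the main desaturase of hepatocytes, was at 12.26, 12.82 and 13.08 against 12.21, 13.09 and 9.97, so that only KO replicate 3 was far below the rest.

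The other fatty acid arm genes overlapped between the genotypes as well. Me1, the malic enzyme that supplies NADPH, was at 7.71, 9.31 and 9.36 in the WT livers against 6.19, 9.10 and 6.71. Its difference of -1.46 (SE 0.881, adjusted p = 0.366 in limma) was the largest of the 30. Thrsp (Spot 14), a lipogenic protein of liver and fat, was at 8.40, 9.58 and 9.10 against 7.49, 9.08 and 7.03. Elovl6, which extends palmitate to stearate, was at 8.34, 9.19 and 9.03 against 7.58, 8.92 and 7.31, a difference of -0.92 (SE 0.475, adjusted p = 0.308). Pnpla3, a lipid droplet acylhydrolase, was at 6.53, 7.39 and 7.82 against 6.82, 6.88 and 6.54, so that WT replicates 2 and 3 were higher than the other livers. Acly, which makes cytosolic acetyl-CoA from citrate, kept within 9.68 to 10.16 in all 6 livers. Acaca, which makes malonyl-CoA for synthesis, ranged from 8.12 to 8.94. The front-end desaturase Fads1 differed by -0.07 (SE 0.280), Fads2 by -0.36 (SE 0.457) and the elongase Elovl5 by -0.16 (SE 0.300). Over the 6 livers Fads2 ranged from 10.35 to 11.87 and Elovl5 from 11.19 to 12.27, and both were highest in KO replicate 2.

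The other comparisons set the AS lines against the KO livers, whose Notch1 genotype they share, and against the WT livers. Both use the same 3 lines and are not independent, and both compare cultured cells with samples labelled liver. Against KO liver all 15 sterol arm genes were higher in the lines by mean, with a median of 1.30 against 0.05 over all genes, where 60.9% of genes were positive. Against WT liver 12 of 15 were (53.3% of all genes), with a median of 0.89 against 0.02. The fatty acid arm was mixed, with 10 of 15 positive in both comparisons and medians of 0.45 and 0.20.

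Few of these differences passed the test over all genes. Against KO liver 2 sterol arm genes rose (Srebf2 and Mvk) and 3 of the fatty acid arm (Fasn, Scd2 and Me1), where 11.4% of all genes were called higher and 10.1% lower (21.4% in either direction). Against WT liver 3 sterol arm genes rose (Srebf2, Mvk and Mvd), 2 fatty acid arm genes rose (Scd2 and Me1) and 1 fell (Thrsp), where 17.6% of all genes were called higher and 11.1% lower (28.7% in either direction). The members' counts, 2 to 3 of 15 higher, are near these shares. They turned on single livers: without KO replicate 1 or 3 the count against KO liver was 0 in both arms. Of all genes 2281 and 2310 were called in those fits. Without KO replicate 2 the count was 9 in the sterol arm and 3 in the fatty acid arm, all higher. In that fit 1674 of all 19938 genes were called higher and 1762 lower. Against WT liver the sterol arm had 0 without WT replicate 2 and 4 without AS line 3, and 1 without any other single array, and the fatty acid arm had 2 to 4. These fits called 3397 to 5435 of all genes. Called genes over the whole table numbered 2268 higher and 2007 lower against KO liver, and 3506 higher and 2209 lower against WT liver. With the arrays scaled to their 75th percentile the second split turned to 2476 higher and 2884 lower. At an unadjusted p under 0.05 the sterol arm had 10 genes against KO and 7 against WT liver, the fatty acid arm 7 and 4, and all genes 33.9% and 39.9%. Lines and livers did not overlap for 7 sterol arm genes against KO and 5 against WT liver, all higher (24.1% and 28.3% of all genes). In the fatty acid arm 6 were wholly higher against KO liver, and against WT liver 3 were wholly higher and 1 wholly lower (16.7% and 19.5% of all genes were wholly lower).

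**Figure D3:**
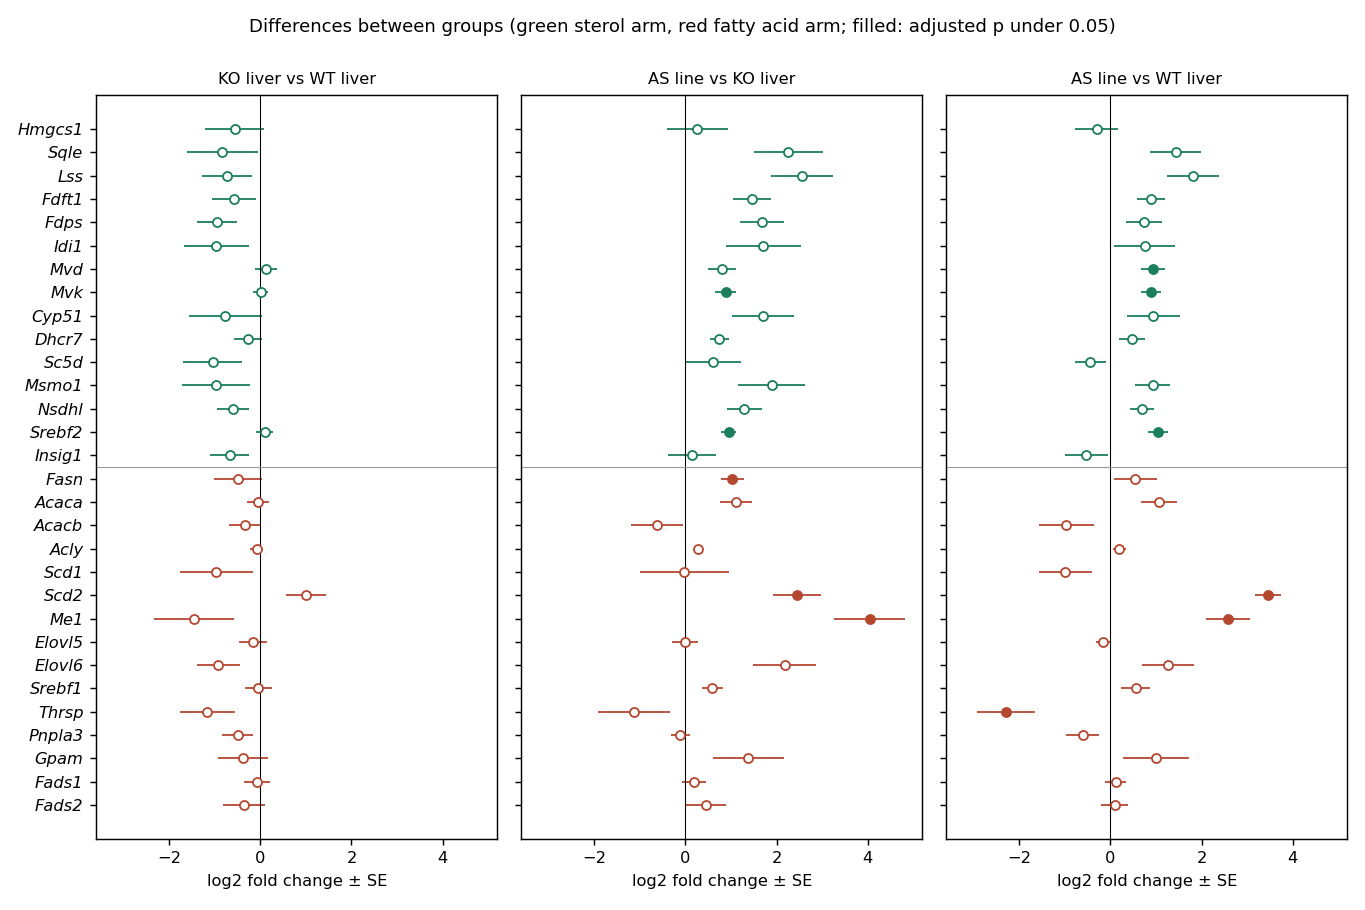
Log2 fold change with its standard error (x axis) of each of the 30 genes (y axis; sterol arm above the line, fatty acid arm below) in the 3 comparisons; filled points passed the threshold on the adjusted p (0.05, limma). No point is filled for KO against WT liver, 5 are filled against KO liver and 6 against WT liver, and Thrsp, at -2.29 against WT liver, is the only filled point left of 0.

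Of the regulators, only Srebf2 passed the test in the lines, but its change was not separate from that of Srebf1. The change of Srebf2 exceeded that of Srebf1 by 0.36 (SE 0.339) against KO liver and 0.50 (SE 0.349) against WT liver, with overlap in both. Srebf2 was at 10.98, 10.48 and 10.55 in lines 1, 2 and 3, and each line lay above the highest of the 6 livers (9.87). It rose by 0.95 (SE 0.162, adjusted p = 0.0135 in limma, 1.94-fold) against KO liver and by 1.05 (SE 0.220, adjusted p = 0.0186) against WT liver. The first call was lost without KO replicate 1 (adjusted p = 0.0599) or 3 (0.0590), and the second without WT replicate 2 (0.0553). Srebf1 was at 9.80, 10.41 and 9.73, above all KO livers but overlapping the WT livers, with differences of 0.59 (SE 0.225, adjusted p = 0.134) and 0.55 (SE 0.327, adjusted p = 0.273). Insig1 did not pass the test: its lines stood at 11.13, 11.69 and 10.10, of which line 3 lay below every liver, and its differences were 0.15 (SE 0.532) and -0.53 (SE 0.464).

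Enzymes of the sterol pathway differed by step and by line. Hmgcs1, which makes HMG-CoA upstream of mevalonate, was at 10.59, 9.90 and 9.23 in lines 1, 2 and 3, within the livers' range of 8.83 to 10.95. Mvk was at 9.72, 9.30 and 8.98, and every line lay above the highest liver (8.64). It rose by 0.88 (SE 0.222, adjusted p = 0.0449 in limma) against KO liver and 0.90 (SE 0.224, adjusted p = 0.0326) against WT liver. Mvd was at 9.14, 8.77 and 8.22, and it rose against WT liver by 0.93 (SE 0.267, adjusted p = 0.0494) but not past the threshold against KO liver (0.81, SE 0.309, adjusted p = 0.134). The call of Mvk was lost without any single array other than AS line 3, in both comparisons (adjusted p from 0.0522 to 0.143). That of Mvd was lost likewise (0.0752 to 0.148), and it also failed with an intensity trend (0.0513), 75th percentile scaling (0.0540), repeated quantile normalization (0.0584) and array weights (0.0554).

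Lss and Sqle had the largest mean differences of the arm in both comparisons. Lss, which closes squalene epoxide to lanosterol, was at 10.14, 10.54 and 8.66 in lines 1, 2 and 3, all above the highest liver (8.49). It differed by 2.55 (SE 0.678, adjusted p = 0.0521 in limma) from KO liver and 1.82 (SE 0.566, adjusted p = 0.0631) from WT liver, just outside the threshold. Without AS line 3 Lss passed, at 3.11 (adjusted p = 0.0333) and 2.38 (0.0159). Over the 14 alternatives it passed in 9 against KO liver and in 3 against WT liver, with adjusted p-values up to 0.166 and 0.180. Sqle, the squalene epoxidase and a flux-controlling step, was at 10.91, 10.47 and 9.45, of which lines 1 and 2 lay above all livers (highest 9.58). Its differences of 2.26 (SE 0.754) and 1.43 (SE 0.569) had adjusted p-values of 0.0964 and 0.121. Fdft1, squalene synthase, was at 11.15, 11.17 and 10.75, all above the highest liver (10.60), with differences of 1.47 (SE 0.418, adjusted p = 0.0629) and 0.89 (SE 0.314, adjusted p = 0.0898).

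Upstream of squalene, Fdps was at 10.95, 11.48 and 10.25 and Idi1 at 10.74, 9.50 and 8.53, and line 3 lay within the livers for both. For Idi1 line 2 lay within them too (highest liver 9.51). Among the late enzymes, Nsdhl, a C4 sterol dehydrogenase, was at 10.43, 9.60 and 9.99, with differences of 1.30 (SE 0.381, adjusted p = 0.0692) and 0.69 (SE 0.261, adjusted p = 0.107). Dhcr7, which makes cholesterol from its last precursor, was at 9.62, 9.49 and 9.19, with 0.74 (SE 0.205, adjusted p = 0.0576) and 0.48 (SE 0.283, adjusted p = 0.274). Msmo1 was at 11.56, 11.13 and 10.67 and Cyp51, the lanosterol demethylase, at 9.92, 9.12 and 8.84. For both, lines 1 and 2 lay above every liver and line 3 did not. Sc5d was at 10.56, 10.52 and 9.93, within the livers' range of 8.69 to 11.14, and its difference from WT liver, the lowest of the enzymes, was -0.44 (SE 0.346, adjusted p = 0.404).

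Taken line by line, line 1 had 12 of 15 sterol arm genes above the highest of the 6 livers, line 2 had 10 and line 3 had 5, where 32%, 35.2% and 35.8% of all genes were. Only Insig1 in line 3 lay below the lowest liver, against 30.7%, 22.4% and 19.9% of all genes in lines 1, 2 and 3. In all 3 lines 4 were above (Lss, Fdft1, Mvk and Srebf2), against 19.8% of all genes. Line 1 was the highest line for 11 of 15 sterol arm genes (27.1% of all genes) and line 3 the lowest for 13 (23.7%). The exceptions to the latter were Nsdhl and Srebf2. The proliferation markers averaged 10.75, 7.24 and 8.75 in lines 1, 2 and 3, against 6.98 to 7.18 in the WT livers and 8.03 to 9.52 in the KO livers. The part of proliferation in the sterol arm values of the lines was not tested.

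Within the fatty acid arm, Me1 and Scd2 stood furthest above the livers. Me1 was at 11.67, 11.28 and 11.17 in lines 1, 2 and 3, where the highest liver was at 9.36. It rose by 4.04 (SE 0.783, adjusted p = 0.0202 in limma, 16.5-fold) against KO liver and by 2.58 (SE 0.476, adjusted p = 0.0120) against WT liver. Scd2 was at 12.88, 12.91 and 11.97, where the highest liver was at 10.69. It rose by 2.45 (SE 0.521, adjusted p = 0.0270) against KO liver and by 3.45 (SE 0.283, adjusted p = 0.000718, 10.9-fold) against WT liver. Both calls against WT liver held under all 14 alternatives run, with adjusted p-values up to 0.0394 for Me1 and 0.0082 for Scd2. Against KO liver both were lost without KO replicate 1 or 3 or AS line 1 or 2, and that of Me1 also without AS line 3 (adjusted p from 0.0549 to 0.0784).

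Of the enzymes that build the fatty acid chain, 1 passed in 1 comparison. Fasn, the fatty acid synthase, was at 10.86, 11.00 and 10.79 in the lines, above all KO livers (9.79, 10.36 and 9.40) and within the WT livers (9.26, 10.67 and 11.08). It rose against KO liver by 1.03 (SE 0.252, adjusted p = 0.0411 in limma), and the call was lost without any single array other than KO replicate 2 (adjusted p from 0.0818 to 0.136). Against WT liver the difference was 0.55 (SE 0.470, adjusted p = 0.445). Acaca was at 9.80, 10.31 and 8.98, all above the highest liver (8.94), with differences of 1.12 (SE 0.348, adjusted p = 0.0814) and 1.07 (SE 0.394, adjusted p = 0.10). Without AS line 3 both passed (1.47, adjusted p = 0.0147, and 1.43, adjusted p = 0.0352). Over the 14 alternatives Acaca passed in 4 against KO liver and in 2 against WT liver. Elovl6 was at 10.80, 10.68 and 8.87, of which line 3 lay within the livers. Its differences of 2.18 (adjusted p = 0.0842) and 1.26 (adjusted p = 0.163) did not pass. Without line 3 they were 2.80 and 1.88 and passed (adjusted p = 0.0339 and 0.0127). Over the 14 alternatives Elovl6 passed in 5 against KO liver and in 1 against WT liver. Acly was level at 10.10, 10.16 and 10.07, with a difference of 0.28 (SE 0.0892, adjusted p = 0.0896) from KO liver.

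Other genes of the fatty acid arm were lower or overlapped the livers. Thrsp was at 6.01, 8.09 and 6.10 in lines 1, 2 and 3, and it fell by 2.29 on the log2 scale against WT liver (SE 0.639, adjusted p = 0.0458 in limma), a call lost without any single array other than AS line 2 (adjusted p from 0.0765 to 0.145). Acacb, the acetyl-CoA carboxylase that restrains mitochondrial fatty acid uptake, was at 6.69, 8.55 and 6.67. Lines 1 and 3 lay below every liver and line 2 within them. The differences of Acacb, -0.63 (adjusted p = 0.511 in limma) from KO liver and -0.97 (adjusted p = 0.294) from WT liver, did not pass. Of 14 alternatives, only that without line 2 called it lower in each comparison (-1.25, adjusted p = 0.0352, and -1.59, adjusted p = 0.0344). Gpam, the first acyltransferase of triglyceride synthesis, was at 9.22, 11.50 and 9.22, of which only line 2 was above the livers (highest 9.54). Scd1 at 12.13, 12.59 and 10.48, Elovl5 at 11.75, 11.71 and 11.54, Fads2 at 11.79, 11.11 and 11.34 and Pnpla3 at 6.25, 6.92 and 6.75 overlapped both groups of livers. Fads1, at 12.37, 12.02 and 11.83, did so too.

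Line 2 differed from the others in this arm. It was the highest line for 10 of 15 fatty acid arm genes, as for 36.2% of all genes, while line 1 was the highest for the other 5 and line 3 for 0. The 10 were Fasn, Acaca, Acacb, Acly, Scd1, Scd2, Srebf1, Thrsp, Pnpla3 and Gpam, and for Acly, Scd2, Fasn, Srebf1 and Pnpla3 the lines were within 1 log2 unit of each other. Above the highest liver stood 6 of 15 genes in line 1, 6 in line 2 and 3 in line 3, and below the lowest liver 3, 0 and 2. Of all genes 32%, 35.2% and 35.8% stood above and 30.7%, 22.4% and 19.9% below in lines 1, 2 and 3, so these counts are near or under the background. Mlxipl was at 7.83, 10.23 and 8.05 and the glycolytic ChREBP target Pklr at 9.95, 11.65 and 10.36, also highest in line 2, as was the hepatocyte marker mean (8.56, 9.53 and 8.14). The part of hepatocyte-type expression in the values of line 2 was not tested.

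Related enzymes with different roles were set against each other. In 15 tests of 5 gene pairs, the within-array log2 difference between partners was compared between groups by an exact permutation test (2-sided), for which 0.1 is the smallest p that 3 against 3 arrays allow and 0.25 the smallest adjusted p reached. The change of Scd2 exceeded that of Scd1 by 4.44 (SE 0.426) against WT liver, where all 3 lines lay apart from all 3 livers (exact p = 0.1). Against KO liver it exceeded it by 2.48 (SE 1.38, exact p = 0.2), with overlap, since KO replicate 3 had a within-array value of 0.64 beside 0.75, 0.32 and 1.49 in the lines. No difference can pass 0.05 in this design. The change of Acaca exceeded that of Acacb by 1.74 (SE 0.418) against KO and 2.04 (SE 0.418) against WT liver, without overlap (exact p = 0.1 each). Elovl6 exceeded Elovl5 by 2.19 (SE 0.590) and 1.43 (SE 0.570), again without overlap. Within livers the order of this pair was turned: the change of Elovl6 from WT to KO lay 0.76 below that of Elovl5 (-0.76, SE 0.226), also without overlap. For Srebf2 beside Srebf1 and for Fads2 beside Fads1 the groups overlapped in all 3 comparisons.

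**Figure D4:**
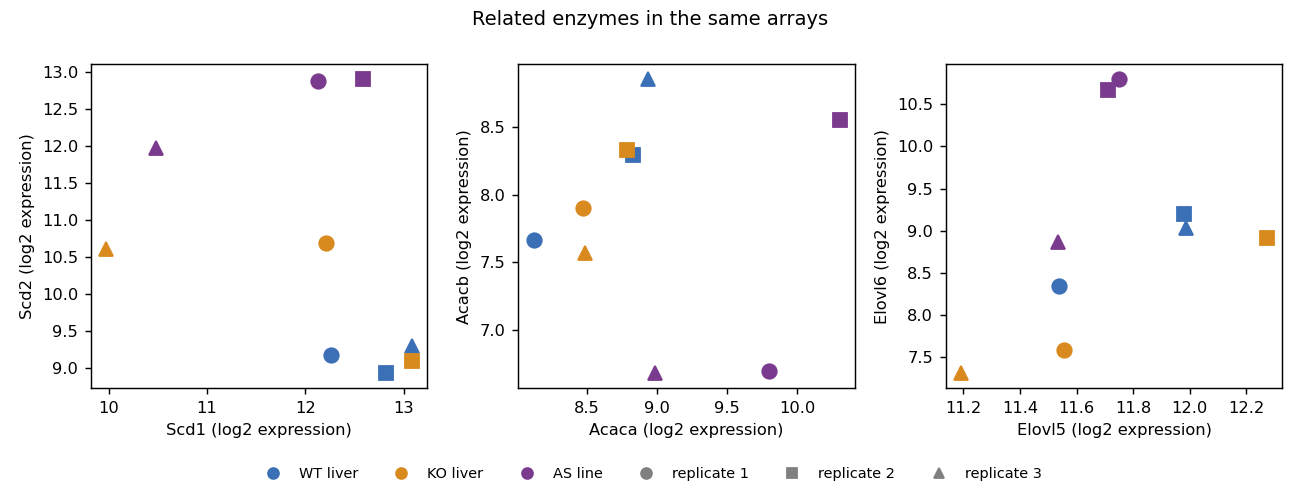
Each point is 1 array, placed by the log2 expression of 2 related enzymes (x and y axes), with colour for the group and shape for the replicate. In the first panel the lines and KO replicates 1 and 3 are separate from the WT livers in Scd2. In the second, lines 1 and 3 are low in Acacb, with Acaca at 9.80 in line 1 and 8.98 in line 3 (highest liver 8.94). In the third, lines 1 and 2 exceed every liver in Elovl6 at similar Elovl5.

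Other genes of the same pathways were taken from 4 lists, whose counts stand beside 11.4% of all genes called higher and 10.1% lower against KO liver, and 17.6% and 11.1% against WT liver. Of 8 further sterol synthesis enzymes 5 were measured, and 0 passed against KO liver and 1 rose against WT liver, Ggps1, which makes geranylgeranyl diphosphate (0.77, SE 0.180, adjusted p = 0.0262 in limma). The 17-beta-hydroxysteroid dehydrogenase Hsd17b7, which acts on C3 ketosterols, was at 10.33, 10.36 and 9.17 in the lines and differed by 1.56 (SE 0.751, adjusted p = 0.219) from KO liver. All 5 were positive against KO liver and 4 against WT liver.

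Among 9 of 13 genes of sterol sensing, uptake and transport, 0 rose and 1 fell in both comparisons, near the 10.1% and 11.1% of all genes called lower. It was Mylip, the ubiquitin ligase that LXR induces to degrade lipoprotein receptors, at 7.64, 7.49 and 6.45 in the lines against 11.58 to 11.95 in the livers. It fell by 4.67 on the log2 scale against KO liver (SE 0.336, adjusted p = 0.000842 in limma) and fell by 4.52 against WT liver (SE 0.330, adjusted p = 0.000489). The sterol-responsive membrane protein Tmem97 was at 11.46, 11.64 and 9.38, with a difference of 1.42 (SE 0.716, adjusted p = 0.239) from KO liver.

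Of 8 of 9 genes of the LXR, ChREBP and efflux list, 0 rose, and 2 fell against KO and 4 against WT liver (10.1% and 11.1% of all genes). The sterol exporter Abcg1 was at 6.85, 7.28 and 6.79 in the lines, and it fell by 4.10 (SE 0.167, adjusted p = 0.000143 in limma) against KO liver and fell by 3.58 (SE 0.159, adjusted p = 8.24e-05) against WT liver. Abca1, which loads cholesterol on apolipoprotein particles, was at 5.62, 9.96 and 9.51, below every liver (lowest 11.11), with a difference of -2.99 (SE 1.19, adjusted p = 0.148) from KO liver that did not pass. Cyp7a1, the rate-limiting enzyme of bile acid synthesis, was at 4.52 to 4.86 in the lines and fell by 4.13 against WT liver (SE 0.393, adjusted p = 0.00123). Endothelial and macrophage markers, which fell in the same comparisons in all of 8 and all of 6 measured genes, moved with these results, and their part in them was not tested.

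Of 16 of 20 further genes of fatty acid and triglyceride synthesis, 5 rose in each comparison (11.4% and 17.6% of all genes), and 0 fell against KO and 1 against WT liver. Elovl7, an elongase of saturated chains, was at 10.11, 9.70 and 9.70 in the lines and at 5.40 to 6.13 in the livers. It rose against KO liver by 4.32 (SE 0.153, adjusted p = 9.77e-05 in limma), and against WT liver by 3.94 (SE 0.167). Mid1ip1, a partner of Thrsp that promotes assembly of acetyl-CoA carboxylase, was at 10.66, 10.15 and 11.38. It rose by 2.65 against KO liver (SE 0.383, adjusted p = 0.00818) and by 2.46 against WT liver (SE 0.348). Thrsp itself was called lower only against WT liver. It overlapped the KO livers, with a difference of -1.13 (SE 0.794, adjusted p = 0.391 in limma). Elovl2, an elongase of polyunsaturated chains, was at 5.80, 8.07 and 5.90 and fell by 3.61 against WT liver (SE 0.823, adjusted p = 0.0243). Between KO and WT livers 0 genes of the 4 lists passed, and the values of smallest adjusted p were 0.109 in the LXR list and 0.195 in the fatty acid list.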

How the data were processed

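RNA of 6 samples labelled liver and 3 cell lines was measured on whole-transcript arrays; the extraction protocol calls the material PHH, unexplained, so whether whole liver was extracted is not settled. The authors deposited log2 expression per probe set, made with RMA and the oligo package per the submitters' processing notes; the sources used here do not give their versions. The medians of the 9 arrays, 6.53 to 6.63, are close, as after joint normalization, so a shift of most genes one way cannot be seen, and the table has no detection calls, so a difference from a dim value is understated. Of 35556 probe sets, 21789 had 1 gene in the platform annotation, 1621 several and 12146 none there. The highest-mean probe set per gene was kept, which left 19938 genes. For Acaca, Fdft1, Idi1 and Me1, which had 2 probe sets, both gave differences within 0.43 log2 units of each other.

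Groups were compared in pairs with limma 3.58.1 (lmFit, eBayes, 2-sided, no covariates) in R 4.3.3, p-values being adjusted by Benjamini-Hochberg across the 19938 genes and called under 0.05. The procedure was also run on simulated data. Genes varied independently there, whereas many moved together in the livers, so that run does not show how the procedure does on these arrays. All 30 members are named. Values of every array are given for Srebf1, Srebf2 and Insig1, and mostly for the 4 members of largest difference and the 4 of smallest p per arm and comparison; from other pathway lists the 3 of largest difference were eligible. Members and lists were chosen with earlier results of these data known. Alternatives were a replicate block, 1 fit of all arrays, an intensity trend, a filter on dim genes, other scalings, mean probe sets, array weights, a hepatocyte covariate and leaving out each array. Genes of the pathway lists with no probe set of their own were not analysed here.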

Additional observations from a re-analysis of the deposited data

How the results depend on the processing

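Directions of the arm medians held under all alternatives run (15 for KO against WT liver, 14 for each of the others) except these: with the hepatocyte covariate the medians of KO against WT liver became 0.12 (sterol arm) and 0.19 (fatty acid arm), and with 75th percentile scaling that of the fatty acid arm against WT liver became -0.014. The scaling moved the median of all genes to -0.18 for KO against WT liver and -0.19 for the lines against WT liver, and leaving out dim genes moved it to 0.17, 0.14 and 0.31 in the 3 comparisons. For KO against WT liver, 1 fit of all arrays gave 2 genes past the threshold and array weights gave 5744, with 11 sterol arm and 6 fatty acid arm members; leaving out 1 array gave 0 to 1949 genes, 0 sterol arm members and 0 to 1 of the fatty acid arm. Against KO liver, the count of sterol arm members was 6 with all arrays in 1 fit, 5 with an intensity trend and 8 without dim genes. It was 6 with 75th percentile scaling, 6 with repeated quantile normalization, 8 with array weights and 0 to 9 with 1 array left out. The fatty acid arm had 5 without dim genes, 5 with array weights and 0 to 3 with 1 array left out. In either direction, 1 fit of all arrays called 5480 of 19938 genes, the intensity trend 4149 and the filter on dim genes 4210 of 11141. The 75th percentile scaling called 4141 genes, repeated quantile normalization 4295, array weights 5160 and leaving out 1 array 2281 to 4048. Against WT liver leaving out 1 array gave 3397 to 5435 genes, 0 to 4 sterol arm members and 2 to 4 of the fatty acid arm. The causes were not tested. Of single members, no called difference changed sign.

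Replicate numbers are shared between groups but name different animals and lines, and deviations of equal numbers correlated at -0.39 to 0.43, so they were not taken as pairs. With the replicate block the fatty acid arm had 6 members past the threshold against KO liver (5 higher, 1 lower), and the sterol arm 0 against WT liver. Over all genes the block called 3426 against KO liver and 4494 against WT liver. Precision is limited by having 3 arrays a group.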
